A study of Homo sapiens with 30 samples.

Results

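The genes described here build and load the centromere and the kinetochore, the protein assembly that ties a chromosome to spindle microtubules. A fixed list of 34 symbols was looked up in both deposited expression tables, and all 34 were found among 16407 genes for OPM2 and 17286 genes for Delta47. The list holds 4 genes of centromeric chromatin and its loading, 13 of the inner kinetochore, 4 of the NDC80 complex, 4 of the MIS12 complex, 4 of the Rod-Zwilch-ZW10 complex with its partner ZWINT, 3 of the SKA complex and 2 of the outer corona. OPM2 and Delta47 are human multiple myeloma cell lines, in which poly-A RNA was sequenced after loss of FOXM1, a forkhead transcription factor of the late cell cycle. Every knockout had been made by delivering Cas9 with a guide to exon 2 of FOXM1, and each knockout group is a single clone. The groups of each line are the unedited line (WT) and knockout clones 1 and 2 (KO1, KO2). In OPM2, clone 1 also carried an empty vector (KO1EV) or a vector for the FOXM1c isoform (KO1R). In Delta47, clone 2 carried the FOXM1c vector (KO2R). The FOXM1c vector was lentiviral and cells were sorted for GFP. Each group has 3 libraries, and the labels do not say that these came from separate cultures, so p-values measure a spread between libraries that may be technical. A clone was compared with WT to ask what differs after loss of FOXM1, and a vector group with its own knockout to ask what differs when FOXM1c is supplied.

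A centromere is marked by nucleosomes that contain CENPA in place of histone H3, and these are deposited by the chaperone HJURP with the MIS18 complex. The constitutive centromere-associated network, the inner kinetochore, reads this chromatin, and the MIS12 and NDC80 complexes carry the contact outward to microtubules. The SKA complex strengthens that contact, and the Rod-Zwilch-ZW10 complex and the outer corona serve the spindle checkpoint and dynein. Several of these genes belong to the late cell cycle program, in which FOXM1 is recruited by the MuvB complex to the cell cycle genes homology region (CHR), a short promoter element.

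FOXM1 RNA was lower in all 4 clones. The unedited OPM2 libraries averaged 176 ± 0.804 FPKM (SD, n = 3 here and for each mean that follows), clone KO1 averaged 92.1 ± 1.08 and clone KO2 62.1 ± 6.69. The vector groups of OPM2 averaged 107 ± 1.85 (KO1EV) and 278 ± 14.4 FPKM (KO1R). In Delta47 the authors' expression value, whose unit is not named, averaged 88.9 ± 1.88 without editing, 47.9 ± 1.85 and 46.2 ± 0.883 in clones KO1 and KO2, and 99.4 ± 4.37 with FOXM1c. FOXM1 RNA remained in every clone, and the RNA level does not show whether protein was made from it. The fits with limma put the log2 differences from WT at -0.93 and -1.49 in OPM2 and at -0.88 and -0.93 in Delta47, all called at a Benjamini-Hochberg adjusted p under 0.05. Plasma cell and myeloma markers summed to between 2410 and 3110 FPKM in OPM2 libraries and to between 1870 and 2260 in Delta47 libraries. Markers of B cells, T cells, myeloid, epithelial and stromal cells summed to at most 1.67 FPKM per list in OPM2. In Delta47 the stromal and endothelial list summed to between 1.59 and 1.72 in WT, 3.16 and 3.48 in KO1, 14.2 and 15.9 in KO2 and 13.4 and 15 in KO2R. PECAM1 made up most of this (means of 1.19 and 14.5), and COL1A1, a defining stromal gene, was at most 0.28 in any group mean. The epithelial list summed to between 3.05 and 3.88 in WT, 6.84 and 7.01 in KO1, 5.08 and 6.38 in KO2 and 4.36 and 5.32 in KO2R. The B cell, T cell and myeloid lists summed to at most 2.02, 0.23 and 0.7 in any Delta47 library. The part of these lists in the results was not tested. OPM2 KO2 replicate 3 stood apart from its group, with an SD across genes of its deviation from the group mean of 0.533 (log2). KO1EV replicate 3, left out with it in one alternative, had 0.271. KO2 replicates 1 and 2, set against a mean that includes replicate 3, had 0.282 and 0.277. The remaining OPM2 libraries had between 0.1 and 0.158.

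Promoter sequences show which of the genes carry a CHR. Of the 34 genes, 29 had an entry among RefSeq promoters (GRCh38.p14, 300-base windows from -250 to 50 around the annotated start). CENPH, CENPL, CENPM, KNTC1 and MIS18A were not among them. The search used the CHR letters TTTGAA or TTCGAA, the CCAAT box CCAAT, the E2F letters GCGGGAA or TTGGCGC and the forkhead core TAAACA, on both strands, with overlaps between motifs allowed. A CHR was found in 15 promoters (51.7%), against 16.6% of all 27305 promoters and 11% of the promoters of genes tested in OPM2. A CCAAT box stood in 18 (62.1%), against 35.7% of all promoters and 38.3% of those of tested genes. An E2F match stood in 10 (34.5%), against 9.33% and 15.7%. A forkhead core stood in 2 (6.9%), against 12.4% and 6.53%. The 4 promoters shown belong to the pair of genes that was lower in every clone, CENPA (chr2:26785806-26786105, plus strand) and HJURP (chr2:233854486-233854785, minus strand), to NUF2, which fell in Delta47 (chr1:163321704-163322003, plus strand), and to ZWINT, which rose there (chr10:56361210-56361509, minus strand). They are written 5′ to 3′ along the gene, with every motif match in capitals:
CENPA: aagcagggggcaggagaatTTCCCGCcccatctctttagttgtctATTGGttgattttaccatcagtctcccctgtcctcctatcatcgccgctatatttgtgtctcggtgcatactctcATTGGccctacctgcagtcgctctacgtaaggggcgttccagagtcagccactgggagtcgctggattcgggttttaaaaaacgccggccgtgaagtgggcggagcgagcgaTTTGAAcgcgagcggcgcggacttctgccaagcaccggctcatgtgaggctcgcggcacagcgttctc
HJURP: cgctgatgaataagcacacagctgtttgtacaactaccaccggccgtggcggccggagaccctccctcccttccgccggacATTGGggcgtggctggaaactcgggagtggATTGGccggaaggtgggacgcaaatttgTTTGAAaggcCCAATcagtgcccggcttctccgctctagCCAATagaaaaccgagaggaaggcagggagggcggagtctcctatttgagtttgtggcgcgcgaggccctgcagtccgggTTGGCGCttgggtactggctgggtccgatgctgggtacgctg
NUF2: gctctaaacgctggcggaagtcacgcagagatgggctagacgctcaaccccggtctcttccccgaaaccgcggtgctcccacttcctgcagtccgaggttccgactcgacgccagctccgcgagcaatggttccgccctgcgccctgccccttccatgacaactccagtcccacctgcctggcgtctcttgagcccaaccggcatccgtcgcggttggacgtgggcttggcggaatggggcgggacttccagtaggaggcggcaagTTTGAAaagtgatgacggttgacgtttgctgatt
ZWINT: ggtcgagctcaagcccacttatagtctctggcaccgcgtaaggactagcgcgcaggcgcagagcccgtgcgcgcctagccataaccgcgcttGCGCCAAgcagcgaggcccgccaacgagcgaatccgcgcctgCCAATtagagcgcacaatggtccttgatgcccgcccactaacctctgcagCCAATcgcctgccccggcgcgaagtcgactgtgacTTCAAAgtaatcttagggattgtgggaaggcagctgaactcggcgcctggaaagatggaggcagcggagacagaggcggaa
All 4 hold a CHR, whose first base lies at -18 in CENPA, -111 in HJURP, 16 in NUF2 and -31 in ZWINT, counted in bases from the annotated start with upstream bases negative. None of them holds the forkhead core. A CHR was thus present both in genes that fell and in ZWINT. A match describes letters only and is not evidence of binding.

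In the unedited lines the 34 genes covered a wide range of levels, and all 34 passed the minimum of 1 in at least 3 libraries that was set for testing. PMF1, a MIS12 complex subunit, was the highest in both lines, at 106, 114 and 113 FPKM in OPM2 and at 88.6, 95.6 and 96.9 in Delta47. The lowest was CENPP in OPM2, at 4.12, 4.38 and 3.76 FPKM, and CENPQ in Delta47, at 3.18, 3.33 and 3.29. CENPP and CENPQ encode subunits of the same inner kinetochore subcomplex. The median gene stood at 19.1 FPKM in OPM2 and at 15.9 in Delta47, on values that take transcript length into account. The levels of the lines were not tested against each other, because the tables were made separately.

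The 34 genes did not move one way after loss of FOXM1. CENPA and HJURP were called lower in all 4 clones, no gene was called higher in all 4, and 4 genes were called in none. The shares of all genes with these patterns over the 4 clones were not counted. In OPM2 KO1, 8 of the 34 genes were called (5 higher, 3 lower), where 21.2% of all genes tested were called (14.5% higher, 6.72% lower). In OPM2 KO2, 6 were called (1 higher, 5 lower), where 14.4% of all genes were (6.54% higher, 7.82% lower). In Delta47 KO1, 21 were called (14 higher, 7 lower) beside 52.6% of all genes (28.9% higher, 23.7% lower). In Delta47 KO2, 13 were called (7 higher, 6 lower) beside 43.6% (28.4% higher, 15.2% lower). With all libraries in the fit, these counts are 23.5%, 17.6%, 61.8% and 38.2% of the 34 genes, near the shares of all genes.

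The median log2 difference of the 34 genes was 0.11, -0.03, 0.09 and 0.07 in these 4 comparisons, and that of all genes was 0.07, 0.02, 0.02 and 0.05. In Delta47 KO1 the genes of centromeric chromatin, the inner kinetochore, the NDC80 complex, the MIS12 complex and the Rod-Zwilch-ZW10 group each held calls in both directions. With the length trend removed, only centromeric chromatin and the inner kinetochore did. Both clones of a line share their WT libraries, so their differences are given side by side and are not independent of each other. The OPM2 KO1 count was 3 or 4 when any 1 of its 6 libraries was left out, beside 11.9% to 14.6% of all genes. It was 21 when only the 2 groups compared were fitted, where 54.4% of all genes were called. Without KO2 replicate 3 the OPM2 KO2 count was 16 (2 higher, 14 lower), 47.1% of the 34 genes beside 30.4% of all genes. The split of all genes by direction was not counted in that fit. The OPM2 KO2 count was 4 without any 1 of the WT replicates (9.09% to 10%). It was 2, both lower, with only those groups fitted (3.78%).

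**Figure D1:**
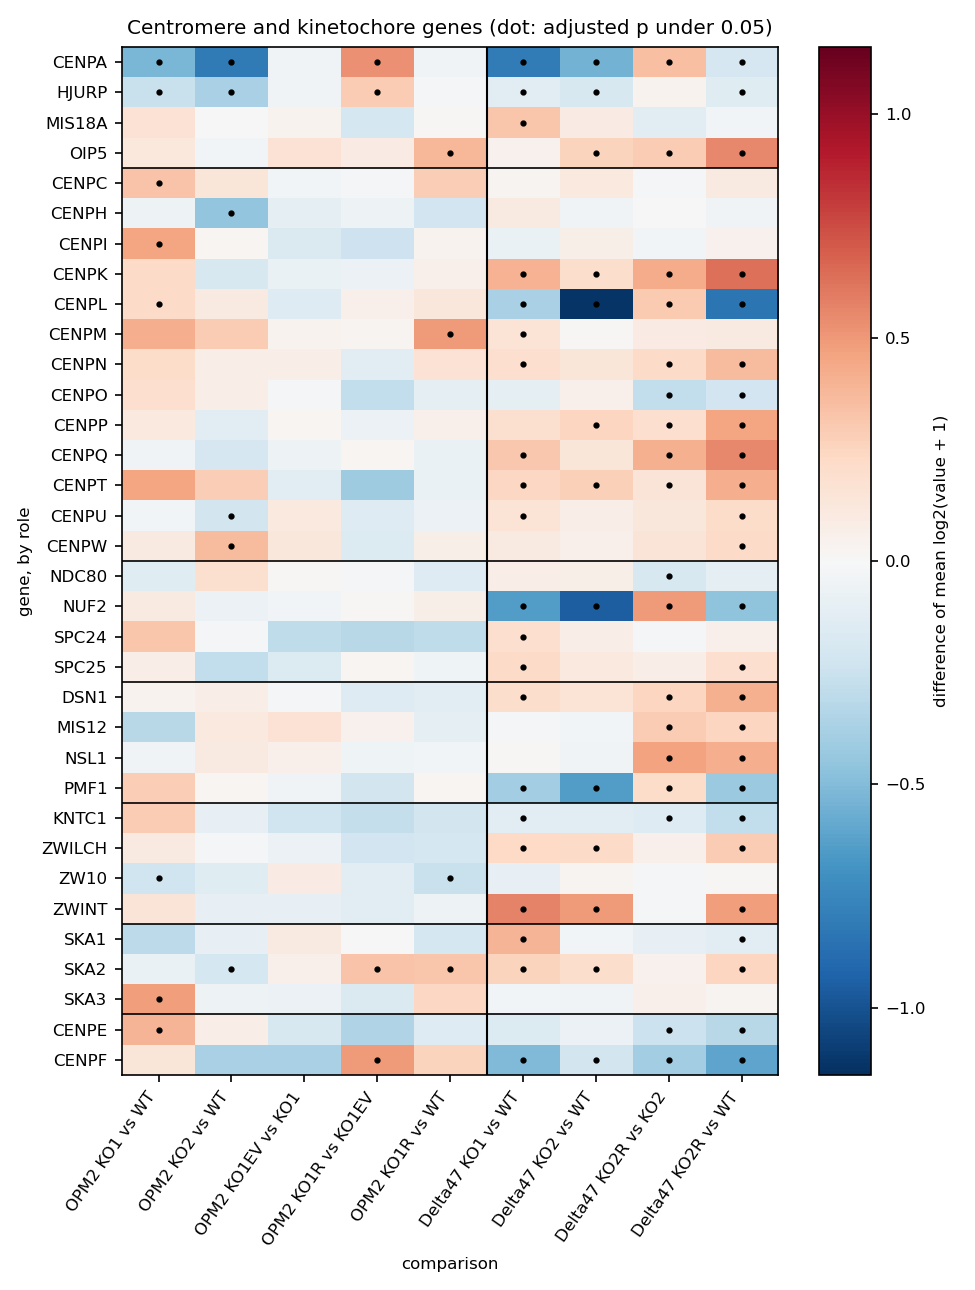
Differences of mean log2(value + 1) for the 34 genes (rows, ordered by role, with lines between roles) in 5 OPM2 and 4 Delta47 comparisons (columns), with a dot where the adjusted p was under 0.05. CENPA is blue in the 4 columns of clones against WT and red in both FOXM1c vector columns, and no gene is called higher in all 4 clones.

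The clones of a line also differed from each other. In OPM2, 11 genes were called in KO2 against KO1 (3 higher, 8 lower), beside 29.9% of all genes (10.8% higher, 19.1% lower). That count was 28 (3 higher, 25 lower) without KO2 replicate 3, which is 82.4% of the 34 genes beside 60.8% of all genes. It was 6 without KO1 replicate 2 (21.1%), 7 without KO2 replicate 1 or 2 (21% and 21.6%), and 0 with only those groups fitted (11.6%). In Delta47 the same contrast called 13 (5 higher, 8 lower), beside 42.1% (24.9% higher, 17.2% lower). It called 8 without KO1 replicate 3 or KO2 replicate 1, beside 36.8% and 34.2% of all genes. With the empty vector, KO1EV against KO1, limma called 0 of the 34 genes beside 4.95% of all genes (1.78% higher, 3.17% lower). An unadjusted p under 0.05 was seen for 2 of them, and the smallest adjusted p was 0.161. Without KO2 replicate 3 and KO1EV replicate 3, limma called 11 there, beside 32% of all genes.

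With the FOXM1c vector, 4 genes were called in OPM2 KO1R against KO1EV, all higher (CENPA, CENPF, SKA2 and HJURP), beside 8.23% of all genes (3.1% higher, 5.12% lower). Without KO2 replicate 3 and KO1EV replicate 3, the same 4 genes were called higher and 6 others lower (PMF1, CENPE, MIS18A, SPC24, CENPW and CENPO), beside 26.4% of all genes. In Delta47 KO2R against KO2, 18 were called (13 higher, 5 lower), beside 62% of all genes (25.2% higher, 36.8% lower). The Delta47 comparison uses no empty-vector libraries, so the vector, the sorting and FOXM1c cannot be told apart. Against WT, KO1R had 4 genes called (3 higher, 1 lower), beside 14.7% of all genes (6.38% higher, 8.29% lower). It had 1 or 2 when any 1 library was left out, beside 8.37% to 11.6% of all genes. KO2R had 25 called against WT (15 higher, 10 lower), beside 69% of all genes (34.2% higher, 34.9% lower). CENPA was the single gene of the 34 called higher with the vector in both lines. With quantile scaling HJURP and SKA2 were called higher in both as well (0.10 and 0.11 in Delta47). The share of all genes called higher in both lines was not counted. CENPF was called in opposite directions, and its Delta47 call was lost with the length trend removed.

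CENPA, the histone H3 variant that marks the centromere, showed the largest fall among the 34 genes in both OPM2 clones. Its level was 19.4, 18.4 and 18.4 FPKM in WT, 13.1, 12.1 and 12.9 in KO1 and 10.2, 10.4 and 10.1 in KO2. Every clone library lay below every WT library, and KO2 lay below KO1. The log2 differences from WT were -0.53 ± 0.05 (SE; adjusted p = 1.77e-05) in KO1 and -0.81 ± 0.05 (adjusted p = 3.69e-07) in KO2. The difference between the clones was itself called at -0.29 (adjusted p = 0.00138), but missed the threshold when only those 2 groups were fitted (adjusted p = 0.0547). With the empty vector CENPA stayed at 12.6, 12.1 and 12.2 FPKM, and with FOXM1c it stood at 18.6, 18.3 and 17.5. The KO1R libraries were all above the KO1EV libraries and overlapped WT. The vector difference was 0.53 ± 0.05 (adjusted p = 3.91e-05), and KO1R differed from WT by -0.04, which did not pass the test (adjusted p = 0.648).

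In Delta47 CENPA stood at 23.5, 24.0 and 24.4 in WT, 13.6, 12.6 and 13.8 in KO1 and 17.0, 15.65 and 16.0 in KO2. The 3 groups did not overlap, and here KO1 was the lower clone. Log2 differences from WT were -0.80 ± 0.05 (adjusted p = 8.05e-10) in KO1 and -0.54 ± 0.05 (adjusted p = 8.69e-08) in KO2. With FOXM1c the KO2R libraries stood at 20.6, 21.15 and 21.2, above all KO2 libraries and below all WT libraries. That difference was 0.35 ± 0.05 (adjusted p = 6.07e-06) and became 0.21 when the length trend of all genes was removed, still called. KO2R differed from WT by -0.19 (adjusted p = 0.00199). In each comparison of a clone with WT and of a vector group with its knockout, the CENPA call was kept under every alternative that was run, 13 in OPM2 and 12 in Delta47.

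HJURP, the chaperone that deposits CENPA, moved in the same directions in OPM2, by smaller amounts. Its level was 40.55, 40.3 and 40.6 FPKM in WT, 33.4, 34.05 and 33.8 in KO1, 30.8, 30.8 and 31.7 in KO2, 31.2, 32.5 and 34.7 in KO1EV and 39.5, 41.0 and 40.4 in KO1R. All knockout and empty-vector libraries lay below WT, and the KO1R libraries lay around it. The log2 differences were -0.26 (adjusted p = 0.0044) in KO1, -0.37 (adjusted p = 0.000327) in KO2 and 0.29 (adjusted p = 0.00373) for KO1R against KO1EV. In Delta47 HJURP was 35.9, 36.1 and 36.8 in WT, 34.3, 32.15 and 33.0 in KO1, 32.2, 30.3 and 33.15 in KO2 and 32.0, 33.3 and 33.4 in KO2R. No clone library reached the WT range, and the differences were -0.12 (adjusted p = 0.0187) in KO1 and -0.18 (adjusted p = 0.00223) in KO2. The KO1 call was lost without KO1 replicate 2 (adjusted p = 0.0781) or without WT replicate 3 (adjusted p = 0.0592). KO2R did not differ from KO2 past the threshold at 0.04 (adjusted p = 0.366), but it did at 0.14 (adjusted p = 0.00829) with the length trend removed and at 0.10 (adjusted p = 0.0413) with quantile scaling.

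**Figure D2:**
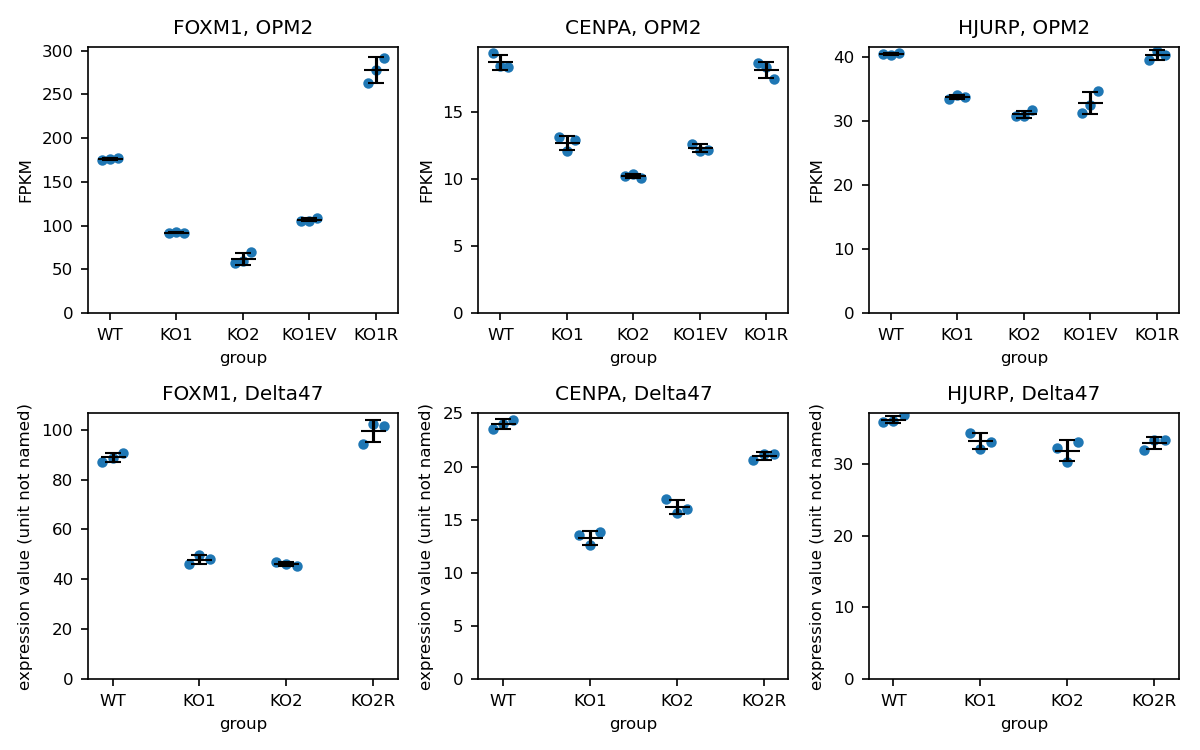
Level of FOXM1, CENPA and HJURP in every library by group, in FPKM for OPM2 (top) and in the authors' expression value for Delta47 (bottom); points are libraries, the bar is the mean and the whiskers 1 SD (n = 3). CENPA lies between 10.1 and 13.1 FPKM in untransduced OPM2 knockouts and between 17.5 and 18.6 FPKM in KO1R.

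The MIS18 genes of the loading pathway were not called lower in any clone with all libraries in the fit, but MIS18A was called lower in OPM2 KO2 without KO2 replicate 3 (-0.20, adjusted p = 0.0238). MIS18A was called higher in Delta47 KO1 at 0.32 (adjusted p = 0.000116), with a median of 0.22 among its 40 neighbouring genes, and in no other clone. OIP5, which encodes MIS18 beta, was called higher in Delta47 KO2 at 0.26 (adjusted p = 0.000838) and in KO2R against KO2 at 0.29, where removing the length trend left -0.01. OIP5 shares 470 exon bases with an antisense transcript, and the strand used for counting is not stated, so its value may include reads from that transcript.

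In bulk RNA, fewer cells expressing a gene and less of its RNA per cell cannot be told apart. Proliferation genes moved in the same samples. CCNB1, cyclin B1, differed from WT by -0.89 and -1.16 in OPM2 and by -0.57 and -0.59 in Delta47, and rose by 1.13 in KO1R against KO1EV and by 0.98 in KO2R against KO2 on the log2 scale. MKI67, a proliferation marker, was called lower in both Delta47 clones (-0.79 and -0.33) and lower still in KO2R against KO2 (-0.55), and it was called in neither OPM2 clone. These values were taken without removing the length trend of all genes described below. The sum of MKI67, PCNA, MCM2, TOP2A and CCNB1 was 499 to 504 FPKM in OPM2 WT, 496 to 508 in KO1, 333 to 478 in KO2, 464 to 540 in KO1EV and 574 to 596 in KO1R. Every KO1R library was thus above every WT and KO1EV library, in the comparison in which CENPA, HJURP, CENPF and SKA2 were called higher. In Delta47 it was 403 to 418 in WT, 356 to 363 in KO1, 349 to 357 in KO2 and 402 to 425 in KO2R. The part of these differences in the results on CENPA and the other kinetochore genes was not tested.

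Among the 13 inner kinetochore genes, OPM2 KO1 had 3 called higher (CENPC, CENPI and CENPL) and none lower, 23.1% beside 21.2% of all genes. CENPC, which binds CENPA nucleosomes directly, differed by 0.33 (adjusted p = 0.0262), CENPI by 0.45 (adjusted p = 0.0292) and CENPL by 0.22 (adjusted p = 0.0331). None of these 3 was called in KO2. Each of the 3 calls in KO1 was lost when certain single libraries were left out, with adjusted p up to 0.0892 for CENPC, 0.0904 for CENPI and 0.12 for CENPL over the alternatives. With the replicate number as a block, CENPT was also called higher in KO1, at 0.45 (adjusted p = 0.00918 against 0.0862 without the block). Without KO2 replicate 3 and KO1EV replicate 3, the genes CENPK (0.22), CENPM (0.42), CENPN (0.21), CENPO (0.19) and CENPT were also called higher in KO1. In that fit 58.9% of all genes were called. OPM2 KO2 had CENPH (-0.45, adjusted p = 0.00215) and CENPU (-0.21, adjusted p = 0.0378) called lower and CENPW called higher (0.36, adjusted p = 0.011). All 3 calls were lost with only the 2 groups fitted (adjusted p of 0.0673 for CENPH, 0.267 for CENPU and 0.148 for CENPW). CENPU was also lost with the replicate block (adjusted p = 0.0528) and without KO2 replicate 1 or WT replicate 1 or 3, and CENPW without WT replicate 2. Without KO2 replicate 3 and KO1EV replicate 3, CENPK (-0.28) and CENPP (-0.26) were also called lower in KO2, beside 41.2% of all genes. CENPH and CENPU belong to different subcomplexes of the network, and CENPW forms a histone-fold pair with CENPT.

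In Delta47, 7 of these 13 genes were called in KO1 (6 higher, 1 lower) and 4 in KO2 (3 higher, 1 lower). These are 53.8% and 30.8%, beside 52.6% and 43.6% of all genes, so the counts are near or below the shares of all genes. CENPT, which links the centromere to the NDC80 complex, was higher in both clones, at 25.3, 28.2 and 26.1 in WT, 31.1, 32.0 and 31.2 in KO1 and 31.7, 32.1 and 32.5 in KO2. All 6 clone libraries were above all WT libraries, with differences of 0.24 (adjusted p = 0.000248) and 0.27 (adjusted p = 0.00011). CENPT shares 58 exon bases with NUTF2 on the opposite strand, and neighbouring genes had medians of 0.06 and 0.03. CENPK was also called higher in both clones (0.40 and 0.20), and the KO2 call was lost in 8 of 12 alternatives, among them no filter (adjusted p = 0.0939), quantile scaling (adjusted p = 0.101) and removal of the length trend (adjusted p = 0.134).

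CENPL, a partner of CENPN in reading CENPA chromatin, had the deepest fall of all 34 genes in any comparison, in Delta47 KO2. Its values were 19.2, 17.8 and 19.6 in WT, 14.4, 13.3 and 15.3 in KO1 and 7.92, 7.54 and 8.74 in KO2. The groups did not overlap, and the log2 differences from WT were -0.37 (adjusted p = 7.71e-05) and -1.13 (adjusted p = 2.21e-10). In KO2R CENPL stood at 10.25, 10.0 and 10.05, above KO2 by 0.30 (adjusted p = 0.000459) and still far below WT. In OPM2 the same gene was not lower in either clone (0.22 and 0.10). Genes around CENPL were lower as well, as described with the other genes of chromosome 1.

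With FOXM1c in Delta47, 6 inner kinetochore genes were called higher and 1 lower, which is 53.8% of the 13 beside 62% of all genes (25.2% higher, 36.8% lower). CENPK stood at 7.8, 8.06 and 8.21 in KO2 and at 11.0, 10.4 and 12.3 in KO2R. CENPQ stood at 3.33, 3.99 and 3.78 in KO2 and at 4.97, 4.93 and 5.85 in KO2R. Neither gene overlapped between these groups, and the differences were 0.43 (adjusted p = 8.49e-05) for CENPK and 0.41 (adjusted p = 0.000169) for CENPQ. In WT, CENPK stood at 7.88, 6.62 and 6.23 and CENPQ at 3.18, 3.33 and 3.29. All KO2R libraries were thus above WT too, and the KO2 mean was not below WT for either gene. In OPM2 KO1R against KO1EV none of the 13 genes was called. CENPT became called there with the replicate block, at -0.41 (adjusted p = 0.0311), against an adjusted p of 0.192 without it.

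The NDC80 complex is the main microtubule binder of the kinetochore, and its 4 genes did not move together. In OPM2 none of NDC80, NUF2, SPC24 and SPC25 was called in either clone against WT with all libraries and groups in the fit. SPC25 was near the threshold in KO2 (-0.28, adjusted p = 0.0532) and was called with the replicate block, with quantile scaling, with the length trend removed and without KO2 replicate 3. NDC80 was called lower in KO1 with quantile scaling (adjusted p = 0.0468) and with the length trend removed (adjusted p = 0.0313). Without KO2 replicate 3 and KO1EV replicate 3, NUF2 (-0.19), SPC24 (-0.30) and SPC25 (-0.35) were called lower in KO2, and NDC80 (-0.14) lower and SPC24 (0.32) higher in KO1. In Delta47 KO1, NUF2 was called lower, while SPC24 (0.19) and SPC25 (0.22) were called higher. Both rises were lost with the length trend removed, at 0.01 and 0.09. NUF2 values were 55.25, 53.0 and 49.5 in WT, 35.8, 30.5 and 33.8 in KO1, 26.3, 26.5 and 27.5 in KO2 and 36.2, 37.45 and 40.2 in KO2R. No groups overlapped, and KO2 was lowest. NUF2 differed from WT by -0.64 (adjusted p = 1.08e-07) in KO1 and -0.95 (adjusted p = 8.8e-10) in KO2, and KO2R differed from KO2 by 0.49 (adjusted p = 1.56e-06). NDC80, the partner of NUF2 in a coiled-coil pair, was not called in either Delta47 clone (0.08 and 0.07) and was called lower in KO2R against KO2 (-0.18, adjusted p = 0.00517).

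The MIS12 complex joins the inner kinetochore to NDC80. None of its 4 genes was called in OPM2 KO1 or KO2 with all libraries in the fit. Without KO2 replicate 3 and KO1EV replicate 3, PMF1 was called higher (0.28) and MIS12 lower (-0.32) in KO1, and PMF1 lower (-0.21) and MIS12 higher (0.34) in KO2. In Delta47, PMF1 was called lower in both clones, at 68.7, 74.15 and 69.5 in KO1 and 63.1, 57.4 and 58.7 in KO2, against the 88.6 to 96.9 of WT. These groups did not overlap, and the differences were -0.40 (adjusted p = 1.89e-05) and -0.64 (adjusted p = 1.02e-07). DSN1 was called higher in KO1 (0.20, adjusted p = 0.0155; 0.0652 with the length trend removed), and MIS12 and NSL1 were called in neither clone. PMF1 shares 587 exon bases with its read-through transcript PMF1-BGLAP on the same strand, and reads cannot be assigned between them with certainty. With FOXM1c all 4 genes were called higher in Delta47: NSL1 by 0.46 (adjusted p = 1.18e-05), MIS12 by 0.29, DSN1 by 0.25 and PMF1 by 0.21. NSL1 stood at 8.48, 7.17 and 7.81 in KO2 and at 12, 10.1 and 11.3 in KO2R, with no overlap. With the length trend removed, DSN1 (0.25) and MIS12 (0.33) kept their calls, NSL1 lost it at 0.14 (adjusted p = 0.0523), and PMF1 turned to -0.03.

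ZWINT, which recruits the Rod-Zwilch-ZW10 complex to kinetochores, was the gene with the largest rise in Delta47 clones. It stood at 13.4, 13.5 and 13.6 in WT, 20.8, 20.4 and 20.65 in KO1 and 19.2, 18.6 and 20.3 in KO2. All 6 clone libraries were above all WT libraries, and the differences were 0.57 (adjusted p = 7.12e-08) and 0.49 (adjusted p = 5.18e-07), beside medians of -0.01 and 0.07 in the neighbouring genes. With FOXM1c it stood at 18.35, 18.8 and 20.7, overlapping KO2, with a difference of -0.01 (adjusted p = 0.926). In OPM2 the clones differed from WT by 0.15 and -0.09, neither past the threshold. ZWILCH was called higher in both Delta47 clones (0.23 and 0.22), KNTC1, which encodes Rod, was called lower in KO1 (-0.13) and turned to 0.02 with the length trend removed, and ZW10 was called in neither. In OPM2 KO1, ZW10 was called lower at -0.23 (adjusted p = 0.0373), a call lost in 6 of the alternatives. ZWILCH shares exon bases with RPL4 and LCTL on the opposite strand, as CENPN, CENPO, CENPP and CENPU do with other genes, so their values are uncertain.

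The SKA complex binds microtubules beside NDC80, and its 3 genes were called in different comparisons. SKA3 was called higher in OPM2 KO1, at 20.8, 18.85 and 20.65 FPKM in WT and 29.5, 27.6 and 27.9 in KO1, with no overlap and a difference of 0.48 (adjusted p = 0.00934), kept under all 13 alternatives. With all libraries in the fit, SKA3 was not called in OPM2 KO2 (-0.06) or in either Delta47 clone. Without KO2 replicate 3 it was called lower in OPM2 KO2, at -0.21 (adjusted p = 0.0424). SKA2 was called higher with FOXM1c in OPM2, at 46.6, 49.65 and 45.3 FPKM in KO1EV and 60.5, 57.9 and 60.5 in KO1R. Those libraries did not overlap, the difference was 0.33 (adjusted p = 0.00472), and KO1R was also above WT by 0.32 (adjusted p = 0.0037), whose libraries stood at 49.45, 47.1 and 46.5 FPKM. SKA2 was called lower in OPM2 KO2 (-0.20, adjusted p = 0.0449) and higher in both Delta47 clones (0.26 and 0.20). The OPM2 KO2 call was lost with only the 2 groups fitted (adjusted p = 0.287) and without KO2 replicate 2 or any 1 of the WT replicates. SKA1 was called higher in Delta47 KO1 alone among the clones (0.39, adjusted p = 2.57e-06). In OPM2 KO1 it missed the threshold at -0.30 (adjusted p = 0.0501) and was called with the replicate block (adjusted p = 0.0264). It was also called lower there without KO2 replicate 3 and KO1EV replicate 3 (adjusted p = 7.45e-06).

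CENPF and CENPE are large coiled-coil proteins of the outer corona, and CENPF was called higher with FOXM1c in OPM2 and lower in Delta47. CENPF in OPM2 stood at 44.35, 49.05 and 45.0 FPKM in WT, 51.6, 54.1 and 47.7 in KO1, 39.8, 40.6 and 37.4 in KO1EV and 53.9, 56.6 and 55.8 in KO1R. KO1R was above KO1EV in every library, with a difference of 0.49 (adjusted p = 0.0468). This call was lost when any 1 of the 6 libraries compared was left out (adjusted p up to 0.143) and with the replicate block (adjusted p = 0.0512). KO1 itself was not called against WT (0.14), and KO1EV lay below KO1 by a log2 difference of -0.37 that missed the threshold (adjusted p = 0.161). Without KO2 replicate 3 and KO1EV replicate 3, limma called KO1EV lower than KO1 at -0.34 (adjusted p = 0.000702). In that fit KO1R was called above KO1EV at 0.45 (adjusted p = 4.97e-05) and KO1 above WT at 0.14 (adjusted p = 0.0287). In Delta47 CENPF stood at 14.3, 13.1 and 12.15 in WT, 9.18, 8.55 and 9.13 in KO1, 11.3, 11.4 and 10.9 in KO2 and 8.08, 8.7 and 8.0 in KO2R. Both clones lay below WT, by -0.51 (adjusted p = 2.57e-06) and -0.21 (adjusted p = 0.00755), and KO2R lay below KO2 by -0.40 (adjusted p = 2.15e-05). CENPE was called higher in OPM2 KO1 (0.39, adjusted p = 0.0393), a call lost in 7 alternatives, and in no other clone.

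Transcript length moved with these values. Spearman's rho between the log2 difference and transcript length, across genes that are not independent replicates, was -0.398 in Delta47 KO1, -0.066 in KO2 and -0.549 in KO2R against KO2. It was 0.443 in Delta47 KO2 against KO1 and -0.481 in KO2R against WT. In OPM2 it was 0.045 in KO1, -0.133 in KO2, -0.141 in KO2 against KO1, -0.326 in KO1EV against KO1, -0.087 in KO1R against KO1EV and -0.264 in KO1R against WT. CENPF (10307 bases) and CENPE (8426.5 bases, medians over annotated transcripts) are the longest of the 34 genes, and CENPW (528 bases) is the shortest. With the length trend of all genes removed, KO2R against KO2 left CENPF at -0.06 (adjusted p = 0.372) and CENPE at 0.06 (from -0.25), and CENPW turned from 0.15 to -0.27. CENPF in Delta47 KO1 went from -0.51 to -0.28 and stayed called, and CENPA in KO1 went from -0.80 to -0.92. The part of transcript length in these differences was not tested.

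**Figure D3:**
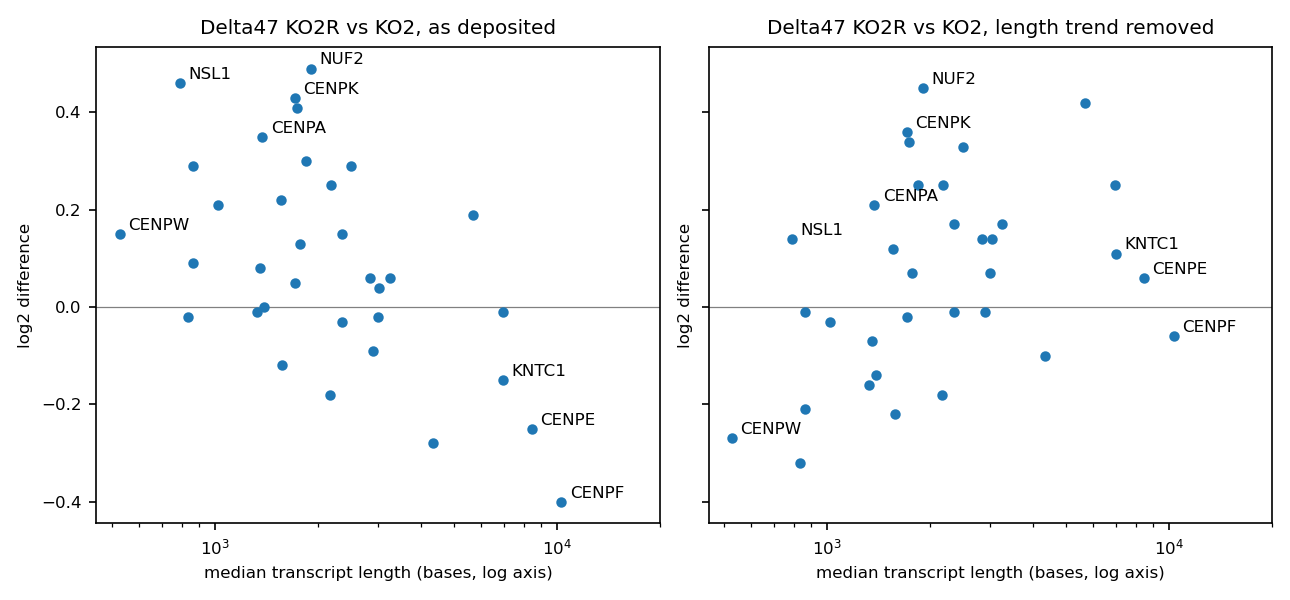
Log2 difference of KO2R against KO2 in Delta47 for the 34 genes (points) against median transcript length on a log axis, as deposited (left) and after the trend over all genes was removed (right). CENPF and CENPE move from -0.40 and -0.25 to -0.06 and 0.06, while NUF2 stays near the top.

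Position on the chromosome also moved with some results in both lines. For each gene the 20 tested genes on either side were taken by their order in RefSeq. Around NUF2 on chromosome 1 in Delta47, the median neighbour differed from WT by -0.51 in KO1 and -0.69 in KO2. Of 40 neighbours there, 38 and 36 were called lower. Around CENPL the medians were -0.38 and -0.69, with 29 and 39 neighbours called lower, and around PMF1 they were -0.46 and -0.61, with 37 called lower in both. Relative to these medians PMF1 stood at 0.06 in KO1 and -0.03 in KO2, and CENPL at 0.00 and -0.44. NUF2 stood at -0.13 and -0.25. NSL1 and CENPF are also on chromosome 1, and their neighbours had medians of -0.11 and -0.10 in KO1 and 0.00 and 0.02 in KO2. In OPM2 KO1 the neighbour medians ran from -0.22 around SKA1 (itself -0.30) to 0.31 around CENPT (itself 0.45). In OPM2 KO2 they ran from -0.38 around ZW10 (itself -0.14) to 0.29 around CENPM (itself 0.29).

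Other genes stood apart from their surroundings. CENPA lay at -0.86 and -0.64 relative to neighbours with medians of 0.06 and 0.10 in Delta47, and in OPM2 its neighbours had medians of 0.09 and 0.01. HJURP neighbours had medians of 0.05 and 0.09 in Delta47 and 0.09 and 0.07 in OPM2. SKA1 on chromosome 18 rose in Delta47 KO1 by the same amount as its surroundings, 0.39 beside a neighbour median of 0.40 with 33 of 40 called higher. Under FOXM1c in KO2R against KO2, NUF2 (0.49) and CENPL (0.30) rose where their neighbours had medians of 0.06 and -0.03, and relative to WT their neighbours in KO2R stayed at -0.61 and -0.66. The part of chromosome position in these values was not tested.

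**Figure D4:**
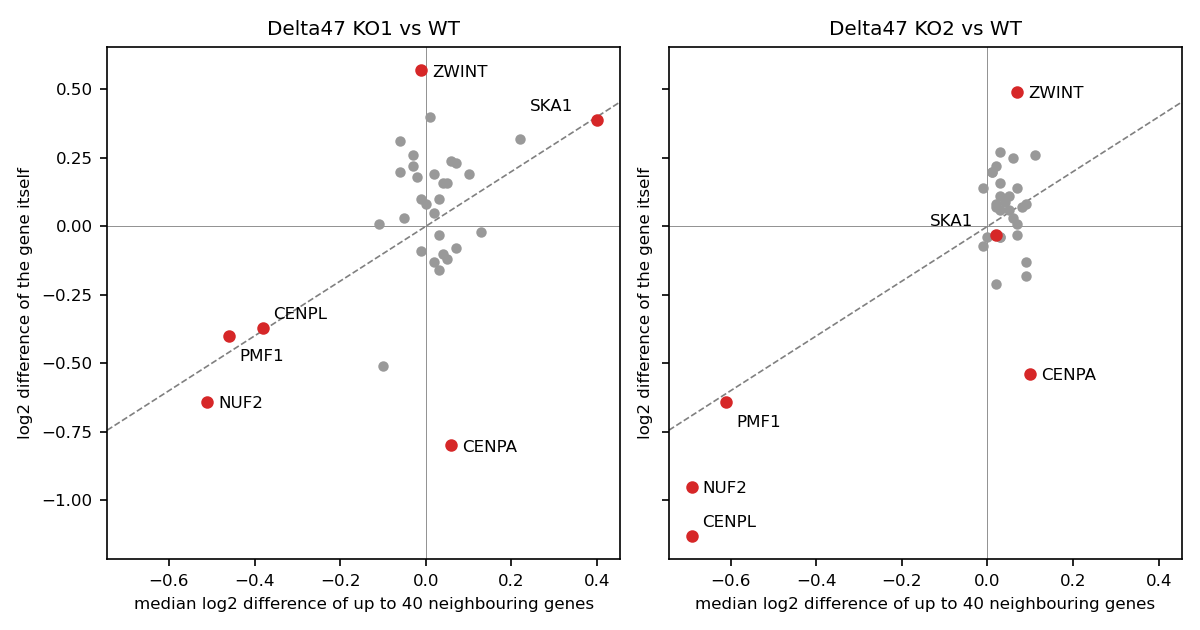
Log2 difference from WT of each of the 34 genes in Delta47 KO1 (left) and KO2 (right) against the median log2 difference of its neighbouring genes; the dashed line marks equality and 6 genes are named in red. PMF1 lies near the line in both clones and SKA1 in KO1, while CENPA and ZWINT lie far below and above it.

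The library of OPM2 KO2 that stands apart, replicate 3, changed the count in that clone more than leaving out any other library of the comparison did. It lay above both other KO2 libraries for 26 of the 34 genes and below both for 6. Its deviations from their mean lay between -0.69 (MIS12) and 0.82 (SPC24), with a median of 0.36 (log2). The share of all genes above or below in this way was not counted. Over all genes tested the SD of its deviation was 0.533 (log2). For CENPA and HJURP replicate 3 deviated by -0.03 and 0.04. PMF1 stood at 97.05, 94.7 and 154 FPKM in the 3 KO2 libraries, ZWINT at 42.4, 41.7 and 63.3 and CENPF at 28.8, 31.6 and 48.4. Without replicate 3, 16 of the 34 genes were called in KO2 (2 higher, 14 lower), where 30.4% of all genes were called, in place of 6. CENPF was then called lower at -0.60 (adjusted p = 1.02e-05), ZWINT at -0.28 (adjusted p = 0.00723) and SPC25 at -0.35 (adjusted p = 0.00718). PMF1 turned from 0.02 to -0.21 (adjusted p = 0.0277) and MIS18A from 0.00 to -0.20 (adjusted p = 0.0238). MIS12 was called higher, at 0.34 (adjusted p = 0.00115). The cause of the deviation was not tested.

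**Figure D5:**
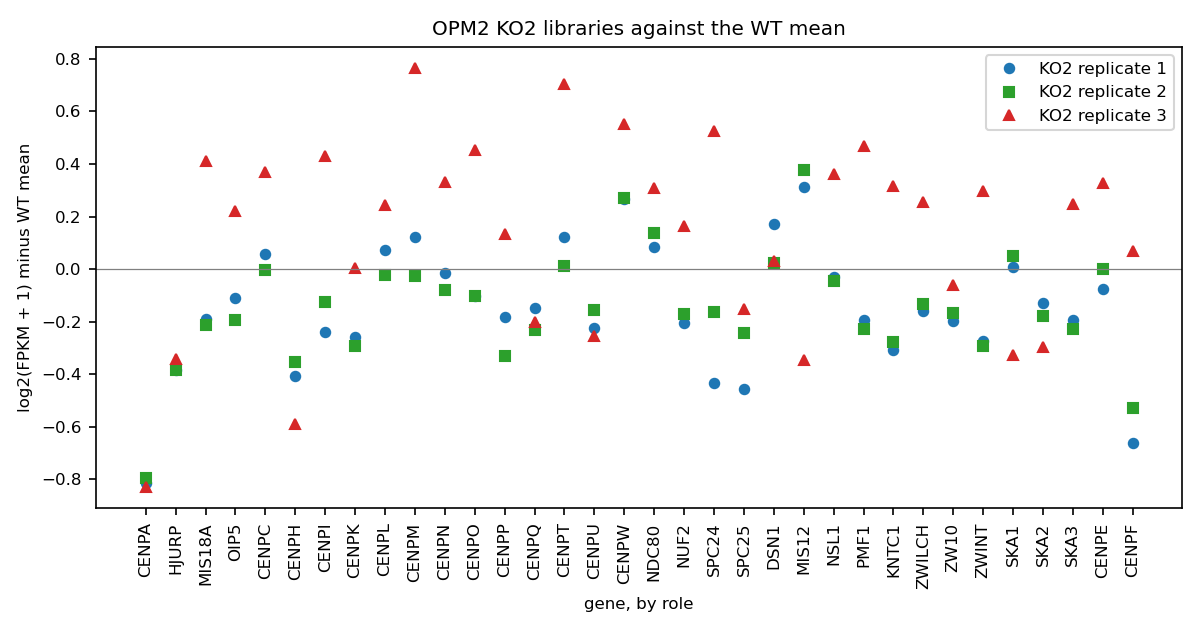
Level of each of the 34 genes in the 3 OPM2 KO2 libraries, as log2(FPKM + 1) minus the mean of the WT libraries; symbols mark replicates 1, 2 and 3. The 3 libraries coincide for CENPA and HJURP, while replicate 3 (triangles) lies above the other KO2 libraries for 26 genes. The share of all genes where it does so was not counted.

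Further genes of the same pathway, taken from a separate list, also held calls in both directions. Of 14 tested in OPM2, 6 were called in KO1 (5 higher, 1 lower), 1 in KO2 (lower) and 1 in KO1R against KO1EV (higher). These are 42.9%, 7.14% and 7.14% of the list, beside 21.2%, 14.4% and 8.23% of all genes. Of 15 tested in Delta47, 9 were called in KO1 (5 higher, 4 lower), 6 in KO2 (3 and 3) and 11 in KO2R against KO2 (8 higher, 3 lower). These are 60%, 40% and 73.3% of the list, beside 52.6%, 43.6% and 62% of all genes. CENPB, which binds a short motif in the alpha satellite DNA of centromeres, was singled out after its values were seen. Its level in OPM2 was 23.9, 25.5 and 25.1 FPKM in WT, 16.3, 16.0 and 16.1 in KO1, 11.5, 11.4 and 11.2 in KO2, 15.8, 14.7 and 17.6 in KO1EV and 33.5, 34.45 and 33.8 in KO1R. The knockouts lay below WT and KO1R lay above it, with differences of -0.59, -1.06 and, for the vector, 1.04. In Delta47 CENPB differed from WT by -0.58 and -0.50 and rose by 0.45 in KO2R against KO2. CENPB thus moved in the direction of CENPA in each of these 6 comparisons, all called. ITGB3BP, the inner kinetochore subunit CENP-R, was called higher in Delta47 KO1 (0.48) and in KO2R against KO2 (0.77), and CENPX in both Delta47 clones (0.47 and 0.27). The values of these further genes were taken without removing the length trend of all genes.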

How the data were processed

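RNA-seq libraries of 2 myeloma lines were analysed from gene tables that the authors deposited. OPM2 values are FPKM per the file headers. The unit of the Delta47 table is not named there, so it was treated as the authors' deposited normalized signal per gene. Reads were placed on hg 19 per the submitters' processing notes, with aligner and counter not given in the sources used here. No read counts were used, so depth is unknown and no counting interval is given. Of 30 samples, 27 libraries were used, since 3 Delta47 columns could not be matched to a single sample and were left out.

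Values were taken as log2(value + 1), genes with at least 1 in at least 3 libraries were kept, and all groups of a line were fitted together with limma 3.58.1 (R 4.3.3). Benjamini-Hochberg adjustment ran over all genes tested, and "called" means an adjusted p under 0.05. A fold change on this scale understates the change of low genes. The scripts were tested on simulated data. The 34 genes, the lists and the comparisons were chosen with earlier results of these data known. Values of every library were given for genes called the same way in both clones of a line (the 6 with the largest smaller change), for up to 6 genes called with the vector, and for the highest and lowest gene of each line; further genes were shown where a result turned on them, chosen after their values were seen. Same-numbered libraries deviated together in OPM2 KO1 against WT (correlations of 0.412, 0.152 and 0.209), the only comparison with all of them over 0.1. Correlations were also positive in KO1R against KO1EV (0.18, 0.086 and 0.258) and in KO1R against WT (0.204, 0.017 and 0.079). The fits used no pairing except in the replicate block alternative. Alternatives were a pseudocount of 0.1, no filter, quantile scaling, fitting only the groups compared, a replicate block, removal of the length trend, and leaving out libraries.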

Additional observations from a re-analysis of the deposited data

Results flagged for a closer look

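For CENPF, CENPN and DSN1, every FOXM1c vector library lay on one side of its knockout libraries in OPM2. In Delta47 every such library lay on the opposite side. The share of all genes with this pattern was not counted. In the vector comparisons, 8.23% of all genes were called in OPM2 and 62% in Delta47. CENPF differed by 0.49 in OPM2 and by -0.40 in Delta47, as differences of mean log2(value + 1). Its Delta47 value became -0.06 (adjusted p = 0.372 by limma) with the length trend removed. Its OPM2 call was lost without any 1 of the 6 libraries compared, with the replicate block (adjusted p = 0.0512) and with no filter (adjusted p = 0.0687). Without KO2 replicate 3 and KO1EV replicate 3 together, the OPM2 call was kept at 0.45 (adjusted p = 4.97e-05). CENPN, which reads CENPA nucleosomes, differed by -0.13 in OPM2 and 0.22 in Delta47. DSN1, a MIS12 complex subunit, differed by -0.15 in OPM2 and 0.25 in Delta47. The OPM2 values of CENPN and DSN1 did not pass the test (adjusted p of 0.415 and 0.19 by limma), and CENPN in Delta47 missed it with the length trend removed (0.12, adjusted p = 0.0835). The difference between the lines was not tested for any of these genes, and OPM2 is compared with the empty vector whereas Delta47 is compared with the untransduced clone.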

How the results depend on the processing

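Fitting only the 2 groups compared gave 21 genes called (15 higher, 6 lower) in OPM2 KO1 against WT, 2 in KO2 against WT, 0 in KO2 against KO1, 2 in KO1EV against KO1 and 14 in KO1R against WT. All genes were then called at 54.4%, 3.78%, 11.6%, 6.05% and 40.2%. Without OPM2 KO2 replicate 3 and KO1EV replicate 3 together, the OPM2 counts were 22, 19, 29 and 11 in the first 4 of these, 10 (4 higher, 6 lower) in KO1R against KO1EV and 15 in KO1R against WT, beside 58.9%, 41.2%, 67.7%, 32%, 26.4% and 44.5% of all genes. Leaving out 1 library at a time gave 3 to 4 in OPM2 KO1 against WT (11.9% to 14.6% of all genes) and 4 to 16 in KO2 against WT (9.09% to 30.4%). It gave 6 to 28 in KO2 against KO1 (21% to 60.8%) and 0 in KO1EV against KO1 (2.39% to 5.79%). It gave 3 in KO1R against KO1EV (4.11% to 5.59%) and 1 to 2 in KO1R against WT (8.37% to 11.6%). In Delta47 it gave 17 to 21 in KO1 (45.8% to 49.7%), 11 to 13 in KO2 (37.3% to 39.3%) and 8 to 12 in KO2 against KO1 (34.2% to 36.8%). It gave 17 to 19 in KO2R against KO2 (56.3% to 59.9%) and 24 to 26 in KO2R against WT (64.7% to 67%). In OPM2 KO2 against WT, PMF1 was -0.21 and MIS18A -0.20 without replicate 3, both alone and with KO1EV replicate 3, and at most 0.14 and 0.11 without another library.

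With the length trend removed, Delta47 KO2 against KO1 had 7 genes called, beside 35.2% of all genes. Signs turned in KO1 against WT (NSL1 -0.17, KNTC1 0.02, CENPM -0.01), in KO2 against KO1 (KNTC1 -0.15), in KO2R against KO2 (CENPW -0.27, OIP5 -0.01, CENPC 0.25, PMF1 -0.03, KNTC1 0.11, CENPM -0.21, CENPE 0.06) and in KO2R against WT (CENPW -0.22, SPC25 -0.01, SPC24 -0.28, CENPM -0.23). Quantile scaling split the calls as 4 higher and 4 lower in OPM2 KO1 and 5 and 7 in Delta47 KO2. In Delta47 it gave 3 and 9 in KO2 against KO1 and 20 and 3 in KO2R against KO2. All genes were then called at 21.6%, 41.4%, 40.1% and 61.4%, in that order. Outside OPM2 KO1 against WT the correlations of same-numbered libraries lay between -0.223 and 0.258, and no other comparison had all of them over 0.1. The replicate block gave 10 calls in OPM2 KO1 against WT, 6 in KO2 against WT and 12 in KO2 against KO1. It gave 0 in KO1EV against KO1, 4 (3 higher, 1 lower) in KO1R against KO1EV and 5 in KO1R against WT. All genes were then called at 25.5%, 15.4%, 33%, 5.36%, 9.46% and 15.8%, in that order. In Delta47 the block gave 21 in KO1 (51.9%), 14 in KO2 (42.7%) and 11 in KO2 against KO1 (41%). It gave 17 in KO2R against KO2 (61.5%) and 25 in KO2R against WT (68.7%). Causes were not tested. A pseudocount of 0.1 or no filter reversed no gene. Depth is unknown, so its limits could not be set.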
